A study of Mus musculus with 18 samples.

Results

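The metabotropic glutamate receptors and the Homer proteins of the mouse hippocampus were followed across intermittent hypoxia treatment (IHT) and ageing. The members were the genes Grm2, Grm3, Grm4, Grm5, Grm7, Grm8, Homer1, Homer2 and Homer3, that is 9 of the 18193 genes with a probe set of their own on the Affymetrix mouse array, and every probe set annotated to 1 of them alone was taken. This gave 19 probe sets (9 for receptors and 10 for Homer genes), of which 17 had a mean signal above 20 over the 18 arrays and were tested. All mice were C57Bl/6 males (C57BL/6J per the methods), and RNA came from the whole hippocampus, with 3 arrays in each of 6 groups. Ctrl were untreated young adult mice, IH5D had IHT for 5 days, and IH5DR2 had the same 5 days followed by 2 days of normoxia. Ctrl28 were reared for 28 days in normoxia, IH28D had IHT for 28 days, and 12 m were reared for 12 months without IHT. IHT alternated nitrogen and room air in short cycles for several hours each day. The labels do not say whether the arrays of a group are separate mice. Every p-value of the main fit (limma) reflects no more than the spread among arrays within groups. That spread is pooled over all 6 groups and drawn toward the spread of probe sets of like signal, so arrays outside a comparison also bear on its p-values.

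Metabotropic glutamate receptors are G protein-coupled receptors that sense glutamate and set the strength of synapses rather than carrying the fast current. Group I receptors such as mGluR5 (Grm5) couple to Gq, phospholipase C and calcium release and sit around the postsynaptic density. Group II receptors (Grm2 and Grm3) and group III receptors (Grm4, Grm7 and Grm8) couple to Gi/o and lower cAMP, and most of them act on glutamate release. Homer proteins bind the tail of group I receptors and link them to inositol trisphosphate receptors, ryanodine receptors and Shank scaffolds. Long Homer forms assemble through a coiled coil, whereas the short form Homer1a lacks it, is made as an immediate early transcript of neuronal activity, and uncouples these links.

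A promoter of Homer1 and the promoter of Grm2 are shown because Homer1 and Grm2 probe sets moved in opposite directions between Ctrl and 12 m. Sequences run from 250 bases before to 50 bases after the annotated start in RefSeq on GRCm38.p6, and 7 of the 9 member genes had an entry. Capitals mark TGACG, the core of the cAMP response element, and GGGCGG, a GC box, as found by a search of both strands, in which the letters did not overlap.
Homer1, chr13:93303507-93303806, plus strand: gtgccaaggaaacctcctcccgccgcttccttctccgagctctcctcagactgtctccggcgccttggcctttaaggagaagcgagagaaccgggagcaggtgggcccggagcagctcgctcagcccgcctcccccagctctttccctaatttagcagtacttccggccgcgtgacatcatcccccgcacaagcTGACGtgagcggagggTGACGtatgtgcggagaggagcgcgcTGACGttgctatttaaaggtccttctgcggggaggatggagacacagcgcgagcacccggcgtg
Grm2, chr9:106656060-106656359, minus strand: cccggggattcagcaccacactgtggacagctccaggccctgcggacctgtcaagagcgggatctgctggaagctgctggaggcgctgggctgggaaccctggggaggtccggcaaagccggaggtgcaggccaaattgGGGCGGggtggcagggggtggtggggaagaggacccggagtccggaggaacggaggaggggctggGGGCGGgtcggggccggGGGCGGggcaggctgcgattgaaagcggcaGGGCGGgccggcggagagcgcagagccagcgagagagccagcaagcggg
The Homer1 window shown held TGACG 3 times, from 56, 40 and 14 bases before the start, and GGGCGG 0 times. The other Homer1 promoter, chr13:93307784-93308083, is not shown and held TGACG 0 times and GGGCGG 0 times. At least 1 TGACG was found in 20.8% of 32851 promoters of this length and at least 3 in 1.03%. The Grm2 window held GGGCGG 4 times and TGACG 0 times, and 5.49% of promoters held at least 4 GC boxes. Of the other member promoters, 1 Homer2 promoter held GGGCGG 8 times (overlapping letters included), the Homer3 promoter 5 times and the rest at most 2 times. Among the 12 promoters of member genes the only other TGACG lay in 1 of the Grm8 promoters, 24 bases before its start. None of the 12 held the full element TGACGTCA, which 1.79% of all promoters did. These matches describe the letters of the windows only.

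The tissue label was checked against marker genes, and 2 arrays stood apart. On 12 m array 3, 7 of 11 hippocampus markers were below all 17 other arrays, among them Dsp at 9.13 (176.8 to 468.6 elsewhere), C1ql2 at 14.7, Fibcd1 at 5.05 and Prox1 at 17.0. On the same array 4 of 5 neocortex markers, such as Lamp5 at 2019 (258 to 438 elsewhere), and 5 of 5 striatum and septum markers, such as Drd1 at 281, were above all others, whereas the neocortex marker Fezf2, at 164, was below all others (204 to 359 elsewhere). The hippocampus label of this array is not borne out by the hippocampus markers that were low, and each 12 m call of a member is given with and without it. On Ctrl28 array 1 the log2 gap between 3′ and 5′ probe sets of Actb and Gapdh, a sign of RNA degradation, was 2.39, against 0.82 and 0.97 on the other Ctrl28 arrays, 0.62 to 0.86 in 12 m and 0.33 to 0.54 in the other groups. Choroid plexus markers summed to 708 to 1754 in 12 m and to 16479 to 19408 in Ctrl28, while Ctrl spanned 1785 to 18395. In such bulk RNA, fewer cells of a type in the sample, for whatever reason, and less RNA per cell cannot be told apart.

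**Figure D1:**
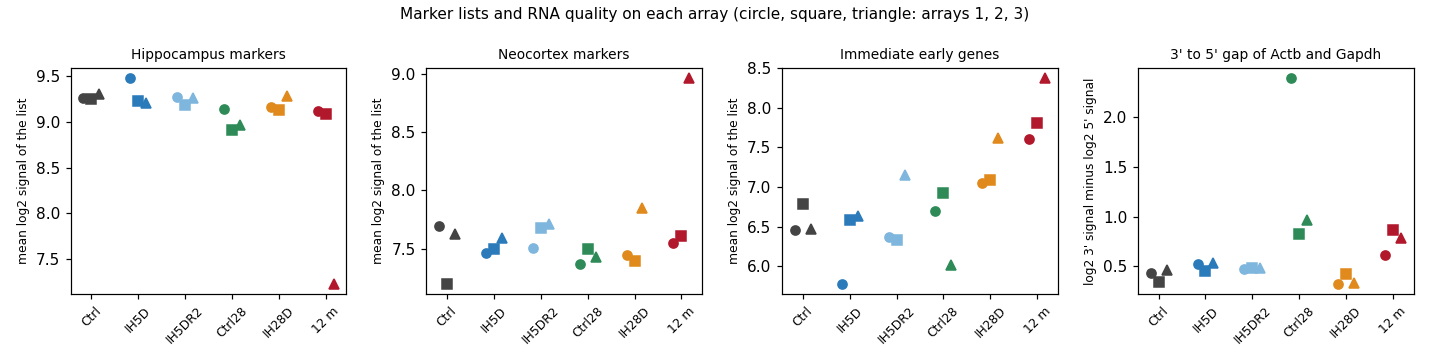
Mean log2 signal of the hippocampus, neocortex and immediate early gene lists and the log2 3′ to 5′ gap on each of the 18 arrays, grouped on the x axis, each symbol being 1 array. The triangle of 12 m lies at 7.23 for hippocampus markers, below all others, and the circle of Ctrl28 at a gap of 2.39, above all others.

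Across comparisons, member probe sets that passed the test were mostly higher than in Ctrl. A probe set was called where the adjusted p of limma (Benjamini-Hochberg over 22932 probe sets) was below 0.05, and differences are in log2 units of the MAS5 signal. Counts of members called are counts of their probe sets, and 5 of the 17 tested are of Homer1. In IH5D against Ctrl 5 of 17 rose and 0 fell, where 6.26% of all probe sets were called (5.59% higher, 0.663% lower). In IH5DR2 against Ctrl 4 rose and 0 fell, where 4.7% of all were called (3.88% higher, 0.82% lower). In 12 m against Ctrl 11 rose and 2 fell, where 50.6% of all were called (26.5% higher, 24.1% lower). In Ctrl28 against Ctrl, neither of which had IHT, 7 rose and 1 fell, where 32.9% of all were called (16.8% higher, 16.1% lower). In IH28D against Ctrl28 limma called 0 of 17, where 7.79% of all were called (5.62% higher, 2.17% lower). At an unadjusted p under 0.05 limma gave 3 of 17 there, and 5552 of all 22932 probe sets. The methods' t-test gave 0 members unadjusted (9.66% of all) and 0 adjusted (0.00436% of all). The probe sets that rose against Ctrl were of 3 genes in IH5D, 2 in IH5DR2, 6 in 12 m and 4 in Ctrl28. Those that fell were of 2 genes in 12 m and 1 in Ctrl28. Against Ctrl, the arrays of the compared groups did not overlap for 10 member probe sets in IH5D (40% of all probe sets) and 11 in IH5DR2 (39.4%). The same held for 12 in 12 m (61.3%) and 9 in Ctrl28 (35.7%) against Ctrl. It held for 3 in IH28D against Ctrl28 (23%) and 3 in IH5DR2 against IH5D (15.1%). The median member difference was 0.49 in IH5D, 0.53 in IH5DR2, 0.99 in 12 m and 0.76 in Ctrl28 against Ctrl, whereas the medians of all probe sets were between -0.08 and 0.03. With each array centred on its median, the median of all probe sets in 12 m against Ctrl moved from -0.08 to -0.32, and 10 members rose and 3 fell.

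The calls of 5 days of IHT rested on few arrays, for all probe sets as for members. In IH5D against Ctrl, leaving out Ctrl array 2, Ctrl array 3, IH5D array 1 or IH5D array 3 left 0 members called, and leaving out IH5D array 2 left 2. Of all probe sets 0.105%, 0.781%, 0.0436%, 0.0741% and 2.16% were then called, in the order of these arrays. Arrays of other groups also moved the member count through the shared spread. It was 3 without array 1 or 2 of IH5DR2, array 1 or 3 of IH28D or array 1 of 12 m. Of all probe sets 4.09% to 5.07% were called there. In IH5DR2 against Ctrl, 0 remained without Ctrl array 2 (0.0218% of all), IH5DR2 array 2 (0%) or IH5DR2 array 3 (0.0174%). Without Ctrl array 3 (0.344%) or IH5DR2 array 1 (0.192%) 1 remained, Grm5 1456119_at. Without Ctrl array 1 (10.2%) 6 members were called, and without Ctrl28 array 1 (21.4%) 8. With the replicate number as a block, 3 members (3.38% of all) were called in IH5D, and Homer1 1425710_a_at (adjusted p 0.0608) and Homer2 1457671_at (0.0674) were not. The 12 m count was 11 to 14 over all single arrays left out, where 37.1% to 58.8% of all were called. It was 14 without 12 m array 3 (45.7%).

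**Figure D2:**
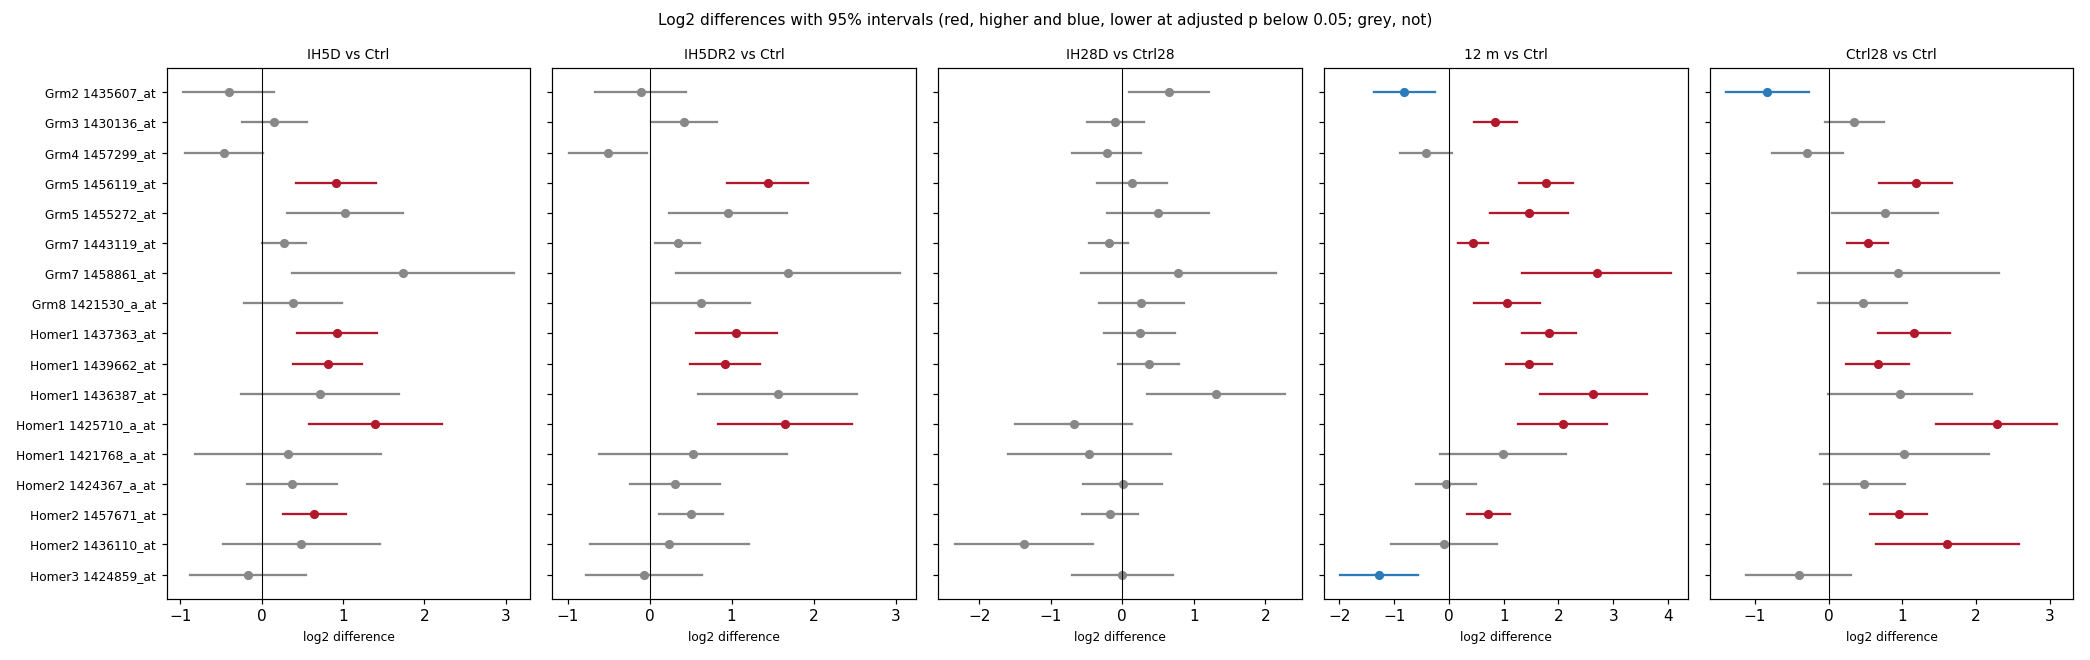
Log2 differences with 95% intervals of the 17 tested member probe sets (y axis) in 5 comparisons (panels), red where called higher, blue where called lower and grey where not called. Homer1 1437363_at and Grm5 1456119_at are red in 4 panels, and all symbols are grey in IH28D against Ctrl28.

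Grm5, a group I receptor gene, was the receptor gene called in IH5D, IH5DR2, 12 m and Ctrl28 alike. On probe set 1456119_at the signals of arrays 1, 2 and 3 were 277, 224 and 308 in Ctrl, 723, 381 and 464 in IH5D, and 737, 835 and 622 in IH5DR2. They were 553, 617 and 652 in Ctrl28, 626, 740.4 and 641 in IH28D, and 1027, 1202 and 607 in 12 m. All 15 other arrays were above the 3 Ctrl arrays, and the ranges of Ctrl28 and IH28D overlapped. Against Ctrl the difference was 0.92 ± 0.23 (SE, n = 3 per group, adjusted p 0.0333 by limma) in IH5D and 1.44 ± 0.23 (0.013) in IH5DR2. It was 1.76 ± 0.23 (3.45e-05) in 12 m and 1.18 ± 0.23 (0.00129) in Ctrl28. IH28D differed from Ctrl28 by 0.14, with a 95% interval of -0.35 to 0.63 (0.763). Without 12 m array 3 the difference of 12 m was 2.06. In IH5DR2 its value did not pass without Ctrl array 2 (1.31, 0.0815), IH5DR2 array 2 (1.34, 0.0631) or IH5DR2 array 3 (1.55, 0.0588).

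The other Grm5 probe set, 1455272_at, gave 334, 269 and 310.2 in Ctrl, 707, 589 and 565 in IH5D, and 580.2, 651 and 539.7 in IH5DR2. Its signals were 239, 665 and 858 in Ctrl28, 704, 883 and 625 in IH28D, and 1047, 1064 and 525 in 12 m. The IHT groups and 12 m again lay above Ctrl on every array, and Ctrl28 array 1, the array with the wide 3′ to 5′ gap, was the lowest of all 18. Its rise passed in 12 m (1.46 ± 0.34, 0.00215, and 1.80 without 12 m array 3), and its differences in IH5D (1.02, 0.0716) and IH5DR2 (0.96, 0.0934) did not. Without Ctrl28 array 1 they passed, at 0.0033 and 0.00503, and Ctrl28 exceeded Ctrl by 1.32 (0.00018) in place of 0.76 (0.092). The part of RNA quality in this was not tested. The 2 Grm5 probe sets had a Pearson r of 0.80 over the 18 arrays.

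**Figure D3:**
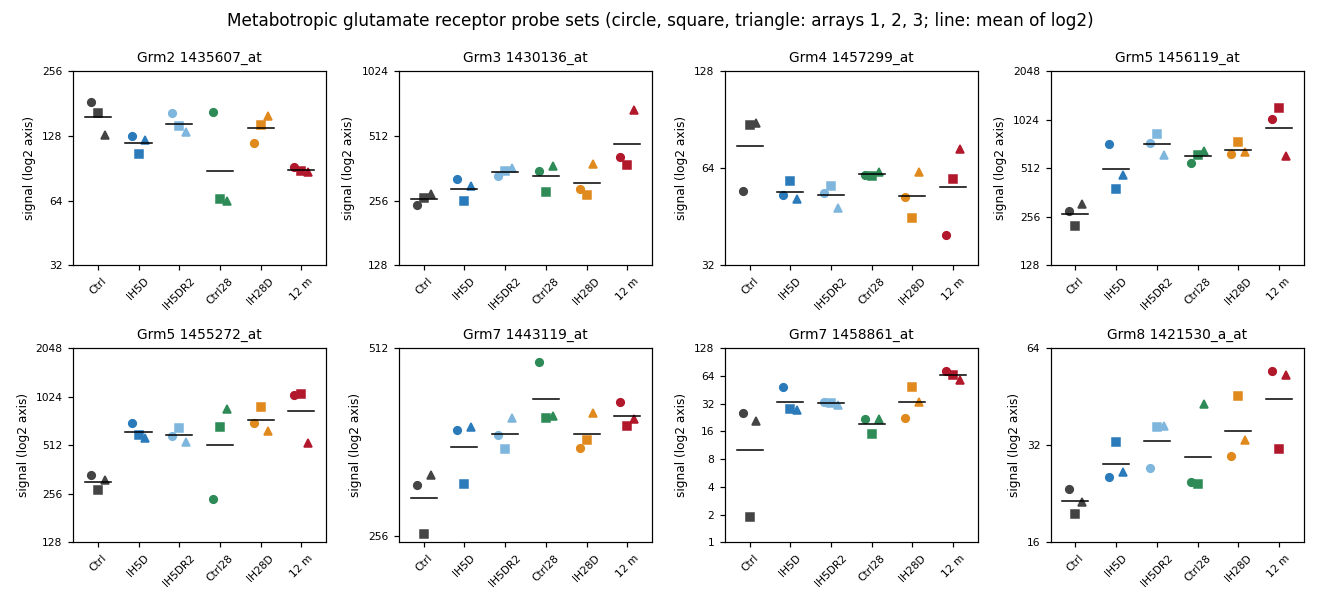
Signal (log2 axis) of the 8 tested receptor probe sets on each array by group, the line being the mean of the log2 signals. Grm5 arrays of Ctrl lie at 224 to 334, and Grm2 in 12 m lies at 87.3 to 91.6, below every Ctrl array.

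Among group II receptors, Grm2 fell and Grm3 rose in 12 m. Grm2, which encodes the presynaptic autoreceptor mGluR2, had signals of 183, 164 and 129 in Ctrl, 128, 106 and 123 in IH5D, and 163, 142 and 133 in IH5DR2. It had 165, 65.4 and 63.4 in Ctrl28, 118, 143 and 158 in IH28D, and 91.6, 88.0 and 87.3 in 12 m. Every 12 m array lay below every Ctrl array, and Ctrl28 was split, with array 1 within the range of Ctrl and the others below all arrays of the series. Grm2 fell by 0.82 on the log2 scale in 12 m (SE 0.27, 0.017) and by 0.83 in Ctrl28 (0.0241). The 12 m value was -0.80 (0.0401) without 12 m array 3, -0.71 (0.0609) without Ctrl array 1 and -0.79 (0.0532) without Ctrl array 2. The Ctrl28 value was -1.28 (1.03e-05) without Ctrl28 array 1, and it did not pass without Ctrl array 1 (0.0747), Ctrl array 2 (0.0765), Ctrl28 array 2 (0.126) or Ctrl28 array 3 (0.137).

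Grm3, whose product mGluR3 is found on both neurons and astrocytes, gave 244, 264 and 275 in Ctrl, 322, 255 and 299.8 in IH5D, and 334, 352 and 362 in IH5DR2. Its signals were 353, 280.2 and 372 in Ctrl28, 290.4, 272 and 378 in IH28D, and 409, 376 and 675 in 12 m. The 12 m arrays were above all Ctrl arrays, and array 3 of 12 m was the highest of the series. Grm3 rose by 0.85 ± 0.19 in 12 m (0.00164), and by 0.59 (0.00892) without 12 m array 3. In IH5DR2 the arrays did not overlap with Ctrl, yet the difference of 0.42 had an adjusted p of 0.166. The astrocyte marker list had a mean log2 signal of 9.16 to 9.19 in Ctrl and 8.82 to 9.31 in 12 m. Of its 8 markers 2 were higher and 2 lower, where 50.6% of all probe sets were called. The part of this list in the Grm3 value was not tested.

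Of the group III receptor genes, Grm7 and Grm8 rose in 12 m, and Grm4 passed in no comparison with all arrays. Grm7, which encodes the presynaptic active zone receptor mGluR7, gave on 1443119_at 309, 258 and 320.3 in Ctrl, 419, 384 and 394 in 12 m and 487, 395 and 398 in Ctrl28, with the 3 IHT groups between 311 and 403. All 12 m and Ctrl28 arrays were above Ctrl. The rise was 0.44 ± 0.13 (0.0104) in 12 m and 0.53 ± 0.13 (0.00548) in Ctrl28. In 12 m it was 0.45 (0.0216) without array 3 and 0.34 (0.0634) without Ctrl array 2. In a fit that includes the 3′ to 5′ gap, the Ctrl28 value was 0.33 (0.0891). The dim Grm7 probe set 1458861_at gave 25.5, 1.86 and 21.0 in Ctrl and 72.2, 65.5 and 57.2 in 12 m, a rise of 2.70 ± 0.65 (0.00272) that was 2.79 without 12 m array 3. Its size rested on Ctrl signals near or below the limit of 20, and it was 1.49 without Ctrl array 2, which read 1.86, and 1.42 (0.000306) with an offset of 16 added before the log. Both values passed.

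Grm8, which encodes the group III receptor mGluR8, was dim as well, with 23.5, 19.6 and 21.4 in Ctrl, 54.3, 31.1 and 52.7 in 12 m, and 24.3 to 45.5 in the other groups. Every 12 m array was above Ctrl, and the rise was 1.06 ± 0.28 (0.00574), or 0.94 (0.0259) without 12 m array 3. Grm4, which encodes mGluR4, read 54.5, 87.0 and 88.4 in Ctrl and 44.9 to 62.4 in the IHT groups and Ctrl28. Its 12 m signals of 39.6, 59.5 and 73.6 overlapped with those of Ctrl. No Grm4 difference passed with all arrays, and that of 12 m was -0.42 (0.127). Without 12 m array 3 it was -0.62 (0.0404).

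Homer1 had the largest rises of the Homer genes that passed the test. The annotation of its probe sets gives no transcript form, so short and long Homer1 transcripts could not be assigned and each probe set is named by its identifier. On 1437363_at, the brightest, signals were 319, 205 and 214 in Ctrl, 463, 426 and 489.9 in IH5D, and 462, 526 and 517 in IH5DR2. They were 347, 646 and 693 in Ctrl28, 542, 701 and 677 in IH28D, and 748, 731 and 1146 in 12 m. The 15 other arrays were all above Ctrl, and the 12 m arrays were above all others. Homer1 on this probe set rose by 0.93 ± 0.23 in IH5D (0.032), 1.06 ± 0.23 in IH5DR2 (0.0259), 1.83 ± 0.23 in 12 m (2.71e-05) and 1.16 ± 0.23 in Ctrl28 (0.00148). Without 12 m array 3 the rise in 12 m was 1.62. IH28D exceeded Ctrl28 by 0.24, with an interval of -0.25 to 0.74 (0.569).

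Probe set 1439662_at of Homer1 had a Pearson r of 0.96 with the former over the 18 arrays. Its signals were 193, 138 and 163 in Ctrl, 291, 286 and 283 in IH5D, and 285, 349 and 298 in IH5DR2. They were 189.5, 284 and 324 in Ctrl28, 297, 378 and 337 in IH28D, and 369, 405 and 609 in 12 m. The IH5D arrays lay close together and above Ctrl, and Ctrl28 array 1 was within the range of Ctrl. The rise was 0.81 ± 0.20 in IH5D (0.0309), 0.92 ± 0.20 in IH5DR2 (0.0256), 1.46 ± 0.20 in 12 m (4.81e-05) and 0.67 ± 0.20 in Ctrl28 (0.0185). In 12 m it was 1.25 without array 3. In Ctrl28 it was 0.89 without Ctrl28 array 1, and did not pass without Ctrl array 2 (0.0942), Ctrl28 array 2 (0.0701) or Ctrl28 array 3 (0.106).

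**Figure D4:**
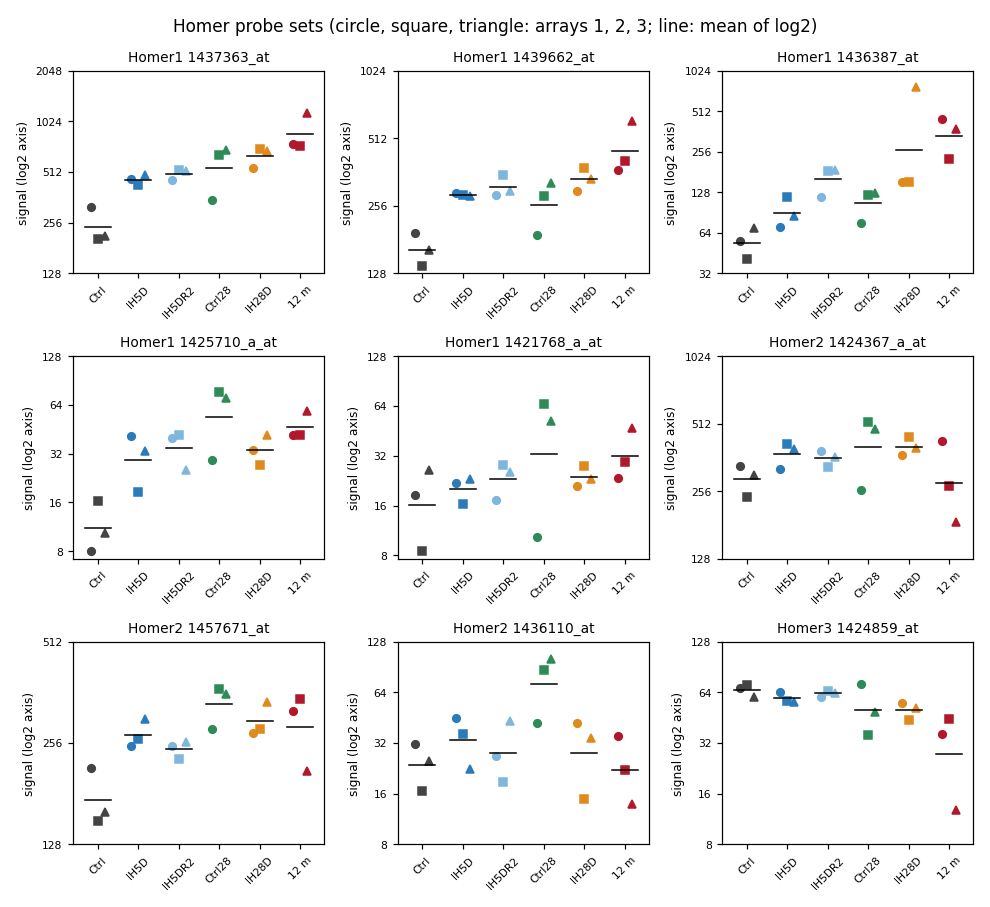
Signal (log2 axis) of the 9 tested Homer probe sets on each array by group, the line being the mean of the log2 signals. Homer1 1437363_at lies at 205 to 319 in Ctrl and at 731 to 1146 in 12 m, and Homer1 1436387_at has 1 high array in IH28D, at 774.

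Homer1 probe set 1436387_at varied more between arrays. It read 55.4, 40.9 and 69.5 in Ctrl, 70.8, 117 and 85.5 in IH5D, and 118, 184 and 188 in IH5DR2. It read 76.1, 123 and 126 in Ctrl28, 152, 153 and 774 in IH28D, and 445, 226 and 378 in 12 m. All arrays outside Ctrl were above Ctrl, and IH28D array 3 was far above the others of its group. The rise in 12 m was 2.64 ± 0.46 (0.000265), and 2.55 (0.0015) without array 3. The differences in IH5DR2 (1.56, 0.057) and in IH28D against Ctrl28 (1.31, 0.0891) did not pass, and without Ctrl28 array 1 the former passed (0.0194) and the latter was 1.08 (0.165). Without IH28D array 3 the latter was 0.53 (0.385). Of the Homer1 probe sets this one had the highest r with the mean of 12 immediate early genes over the 18 arrays (0.71), which is a description of arrays that share groups. Of 11 such genes tested, 8 rose in 12 m, among them Fos by 2.99 (0.000442) and Egr2 by 2.37 (8.01e-05). Of all probe sets 50.6% were called there (26.5% higher). In IH28D against Ctrl28, where 7.79% of all were called, 1, Junb, rose. Without 12 m array 3, 6 rose in 12 m, where 45.7% of all were called. The mean log2 signal of the list was 7.62 on IH28D array 3, the highest of that group, and the part of these genes in the Homer1 values was not tested.

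Homer1 probe set 1425710_a_at was dim in Ctrl. It read 8.03, 16.4 and 10.4 in Ctrl, 41.0, 18.5 and 33.0 in IH5D, and 40.1, 41.9 and 25.2 in IH5DR2. It read 29.0, 76.3 and 70.8 in Ctrl28, 33.8, 27.3 and 41.5 in IH28D, and 41.4, 42.0 and 59.0 in 12 m. Ctrl was below every other array, and IH28D overlapped with Ctrl28. The rises were 1.40 ± 0.39 in IH5D (0.0423), 1.65 ± 0.39 in IH5DR2 (0.031), 2.07 ± 0.39 in 12 m (0.000443) and 2.28 ± 0.39 in Ctrl28 (0.000397). To lessen the weight of signals near background an offset of 16 was added before the log, and the values were then 0.74 (0.0786), 0.90 (0.053), 1.20 (0.000911) and 1.38 (0.000628). Without 12 m array 3 the rise in 12 m was 1.91. Homer1 1421768_a_at, at 8.45 to 65.6, passed in no comparison with all arrays, and Homer1 1425671_at, at 0.234 to 12.6, was below the limit for testing.

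Homer2, a long Homer of neurons, gave different results on its 3 probe sets. On 1457671_at it read 216, 150.3 and 159.5 in Ctrl, 251, 262 and 302 in IH5D, and 250.3, 229.9 and 257 in IH5DR2. It read 281, 369 and 358 in Ctrl28, 274, 282 and 339 in IH28D, and 318, 345 and 211 in 12 m. All arrays but 12 m array 3 were above Ctrl. The rise was 0.65 ± 0.18 in IH5D (0.0454), 0.72 ± 0.18 in 12 m (0.00411) and 0.95 ± 0.18 in Ctrl28 (0.00112), and in 12 m it was 0.94 (0.000723) without array 3. On 1436110_at Ctrl28 was the group that passed against Ctrl, with 42.3, 87.2 and 101 against 31.6, 16.6 and 25.0 in Ctrl, a rise of 1.61 ± 0.46 (0.0134) that did not pass without Ctrl array 2 (0.0716), Ctrl28 array 2 (0.0544) or Ctrl28 array 3 (0.0702). The brightest, 1424367_a_at, ranged from 187 to 519 and was called in no comparison with all arrays.

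Homer3, a long Homer that binds the same partners, was the Homer gene that fell in 12 m. It read 67.8, 71.0 and 60.3 in Ctrl, 71.3, 35.8 and 48.8 in Ctrl28, and 36.2, 44.4 and 12.8 in 12 m, with 43.5 to 65.5 in the IHT groups. All 12 m arrays were below Ctrl, and the lowest was 12 m array 3. Homer3 fell by 1.27 on the log2 scale (SE 0.34, 0.00513), and by 0.72 (0.0223) without that array. As hippocampus markers were low on this array, Homer3 moved with them there, and their part was not tested.

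After 28 days, the values depended on which control group was used. Ctrl28 differed from Ctrl in 8 of the 17 member probe sets, where 32.9% of all were called, although neither had IHT. Rearing time and any difference in how the arrays of these control groups were prepared cannot be told apart. Nor can IHT and any such difference between the arrays of IH28D and Ctrl28. Against Ctrl28, no member passed in IH28D. Against Ctrl, 7 rose in IH28D, where 31.5% of all were called, namely both Grm5 probe sets (1.32, 0.00151 and 1.27, 0.0117), Homer1 1437363_at (1.40, 0.00122), 1439662_at (1.04, 0.00232), 1436387_at (2.28, 0.00278) and 1425710_a_at (1.60, 0.00702), and Homer2 1457671_at (0.78, 0.00618). With IH28D array 3 left out, 7 passed as well, where 22% of all were called, and Homer1 1436387_at was at 1.498 (0.00707). Against Ctrl28, 3 passed in 12 m, where 16.8% of all were called, a share close to that of the members, with Homer1 1436387_at (1.67, 0.0208) and 1439662_at (0.80, 0.0139) higher and Homer2 1436110_at (-1.71, 0.0184) lower. With 12 m array 3 left out these 3 were at 1.59 (0.0653), 0.58 (0.0736) and -1.37 (0.0841), and none of them passed. Grm5 1456119_at in 12 m exceeded Ctrl28 by 0.58 (0.0929), or by 0.88 (0.0189) without 12 m array 3, when it was the 1 member called and 10.1% of all were. Homer1 1437363_at exceeded Ctrl28 by 0.67 (0.057).

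Leaving out Ctrl28 array 1 gave 4 calls in IH28D against Ctrl28, while the share of all probe sets called rose from 7.79% to 14%. Grm2 was then higher in IH28D by 1.11 (0.00022), its 118, 143 and 158 standing against 65.4 and 63.4. Homer1 1425710_a_at (-1.12, 0.0474), Homer1 1421768_a_at (-1.29, 0.0474) and Homer2 1436110_at (-1.76, 0.0177) were then lower in IH28D. With this array kept, the same 4 values were 0.66, -0.68, -0.46 and -1.38. In Ctrl28 against Ctrl its removal raised the count from 8 to 12 and the share of all probe sets from 32.9% to 51.2%. The remaining 2 Ctrl28 arrays had gaps of 0.82 and 0.97, still above the 0.33 to 0.42 of IH28D, and the part of RNA quality was not tested.

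**Figure D5:**
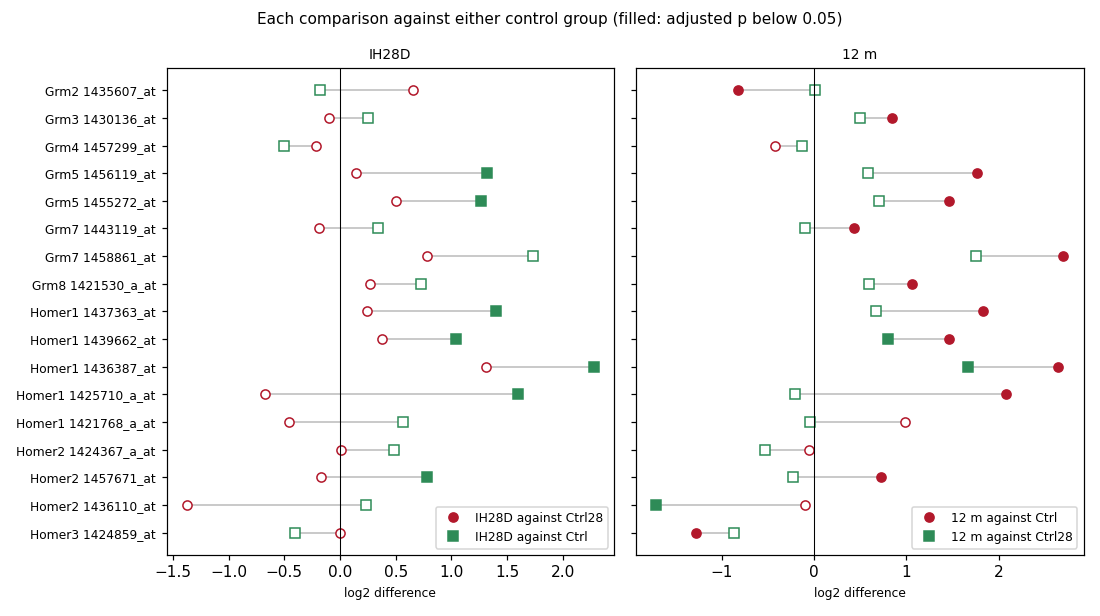
Log2 differences of the 17 tested member probe sets (y axis) for IH28D (left) and 12 m (right), circles against the control group used in the main comparison and squares against the other, filled where the adjusted p was below 0.05. In IH28D the 7 filled squares are those against Ctrl, and no circle is filled.

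The difference of IH28D from Ctrl28 was set directly against that of IH5D from Ctrl. The first minus the second passed for 1 of 17 member probe sets, where 7.12% of all were called (4.83% higher, 2.29% lower). This was Homer1 1425710_a_at, at -2.07 ± 0.55 (0.0301, or -1.26 and 0.0389 with the offset of 16). On this probe set IH28D differed from IH5D by 0.205 (0.923), and Ctrl28 from Ctrl by 2.28. Grm5 1456119_at differed by -0.78 (0.168) and Homer1 1437363_at by -0.69 (0.223). For the 2 days of normoxia, IH5DR2 and IH5D were compared. Of the 17 members limma called 0, with 1 at an unadjusted p under 0.05, and of all 22932 probe sets 0, with 877 unadjusted, while the methods' t-test adjusted in the same way called 0. The member unadjusted was Grm5 1456119_at, at 0.53 with a 95% interval of 0.03 to 1.02.

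In order of the mean log2 signal, Grm5 1456119_at ran from Ctrl through IH5D, Ctrl28, IH28D and IH5DR2 to 12 m. Neighbours in this order did not differ beyond their spread, except Ctrl and IH5D. For Homer1 1437363_at it ran from Ctrl and IH5D through IH5DR2, then Ctrl28 and IH28D, up to 12 m, again with a passing step only between Ctrl and IH5D. Against IH5D, 4 members were higher in 12 m, where 6.9% of all were called. These were Grm5 1456119_at (0.85, 0.0398), Grm3 (0.69, 0.0391), Homer1 1437363_at (0.90, 0.0335) and Homer1 1436387_at (1.92, 0.0261). Leaving out 12 m array 3, which lowered the share of all to 0.85%, Grm5 1456119_at still passed (1.14, 0.0331), and Grm3 (0.43, 0.141), Homer1 1437363_at (0.69, 0.12) and 1436387_at (1.83, 0.0801) did not. Grm2 ran the other way, with Ctrl highest and 12 m and Ctrl28 lowest.

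Of 58 genes listed as partners and effectors of these receptors, 46 were tested. In 12 m 19 rose and 15 fell, where 50.6% of all probe sets were called (26.5% higher, 24.1% lower). Without 12 m array 3, 20 rose and 10 fell, where 45.7% of all were called. Genes of the Gq arm went both ways. Gnaq, a G protein subunit of group I receptors (1.17, 2.14e-05), and the phospholipases Plcb1 (1.40, 0.000309) and Plcb4 (1.41, 0.00198, or 0.95 without array 3) rose. Gna11, a close relative of Gnaq (-0.60, 0.00278), and the phospholipase Plcb3 (-0.66, 0.0258, or -0.40 and 0.148 without array 3) fell. Fmr1, whose product binds RNA and restrains translation downstream of mGluR5, rose by 1.77 (0.000218) and Arc, an activity-induced gene, by 1.58 (0.0114). Of the scaffold genes, Dlg4, which encodes PSD-95 (-1.11, 2.41e-05), and Shank3, a Homer partner (-0.69, 0.00138), fell, and Dlgap1 (0.88, 0.00501) and Grip1 (0.88, 0.02) rose. Without array 3 the values of Dlg4 and Shank3 were -1.16 and -0.70, and both passed.

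With 5 days of IHT, where 6.26% of all probe sets were called, 5 of the 46 partner genes rose and 0 fell. These were Siah1a, which encodes a ubiquitin ligase that binds group I receptors (1.02, 0.0356), the potassium channel gene Kcnq3 (0.80, 0.0283), Gnaq (0.73, 0.0157), Prkcb (0.46, 0.0325) and Gnai1 (0.35, 0.0406). In IH5DR2 4.7% of all were called. Of the partner genes 3 rose there, Siah1a (1.30), Kcnq3 (0.82) and Gnaq (0.65), and Pick1, whose product binds mGluR7, fell by 0.75 (0.0341). Without Ctrl28 array 1 the counts were 16 higher and 1 lower in IH5D (23% of all called) and 9 higher and 3 lower in IH5DR2 (21.4%). Partner counts without single arrays of Ctrl, IH5D or IH5DR2 are not given. Leaving out an array of the compared groups left 0.0436% to 11.2% of all probe sets called in IH5D. In IH5DR2 it left 0% to 10.2%. Only without Ctrl array 1 did these shares exceed those with all arrays. In IH28D against Ctrl28 5 rose and 1 fell, where 7.79% of all were called. Among those that rose were Dlg4 (0.94, 0.00055), the kinase gene Ptk2b (0.91, 0.0476) and the G protein gene Gnao1 (0.88, 0.000143). Gnai1 fell by 0.42 (0.0127). In Ctrl28 against Ctrl 9 rose and 11 fell, where 32.9% of all were called. Dlg4 (-1.24) and Ptk2b (-1.17) were there on the lower side. Both comparisons share the Ctrl28 arrays. Without Ctrl28 array 1 the counts were 11 higher and 2 lower in IH28D (14% of all called) and 16 higher and 17 lower in Ctrl28 (51.2%).

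The genes whose log2 signal was most like that of a member over the 18 arrays are given as a description, since the arrays share groups. Only genes whose brightest probe set had a mean signal of at least 100 were searched. For Grm5 1456119_at these were Fyco1 (Pearson r 0.91), Gpr155 (0.903) and Odr4 (0.902). For Homer1 1437363_at they were Lpgat1 (0.977), Peg3 (0.969) and Dnajb4 (0.968), and Lpgat1 was also first for Homer1 1439662_at (0.962). Homer1 1436387_at had Dio2 (0.847), Tra2a (0.841) and Phf3 (0.835). Homer3 was most like Cabp7 (0.943), Spink8 (0.939) and Grp (0.938), and Grm2 like Ctif (0.928), Os9 (0.924) and Phyhip (0.918). Grm3 had Pde7b (0.91), Nefm (0.865) and Pdp1 (0.834). These values include 12 m array 3, on which Homer3 was the lowest (12.8) and Grm3 the highest (675) of the series. The part of that array in r was not tested.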

How the data were processed

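RNA of mouse hippocampus was hybridised to 18 Affymetrix mouse genome arrays. The authors deposited log2 values of MAS5 signals, scaled so that the trimmed mean of unlogged signals was 100.03 to 100.04 on each array; the MAS5 version is not given in the sources used here. Of 45037 probe sets that are not manufacturer controls, the 22932 with a mean signal above 20 were fitted with limma 3.58.1 under R 4.3.3, giving each group its mean, with a variance trend, 12 residual degrees of freedom and Benjamini-Hochberg adjustment over all of them. A probe set rose or fell where the adjusted p was below 0.05, and p-values in parentheses are these. The precision is limited by 3 arrays per group. Probe sets were named from the platform annotation, with symbols updated through RefSeq. One probe set shared by Grm2 and another gene was left out.

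The 9 members, the gene lists and the rules for naming genes were chosen with earlier results of these data known. All members are named, partner genes by the 3 largest differences per comparison with a mean signal of at least 100 and by their role, those named by role being chosen after their values were seen, and genes of like pattern by the 3 highest r. A list counts the brightest probe set per gene. In IH5D against Ctrl the deviations of arrays with the same number correlated at 0.161, 0.225 and 0.172, so the fit with the replicate number as a block stands beside that result; the pairing comes from the data, as the labels do not state what a number means. Alternatives were the minimum signal (none or 50), a single probe set per gene, quantile normalization, median centring, an offset of 16, no variance trend, array weights, a fit that includes the 3′ to 5′ gap, the replicate block, the compared groups alone, the methods' t-test, the other control group and each array left out, and, added after seeing the data, both arrays that stood apart left out, the block over IH5D and Ctrl alone, and 12 m array 3 or IH28D array 3 left out of the pairs 12 m against Ctrl28, 12 m against IH5D and IH28D against Ctrl. The fit was tested on simulated data.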

Additional observations from a re-analysis of the deposited data

Results flagged for a closer look

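Homer1 1425710_a_at was the member probe set for which IH28D against Ctrl28 differed from IH5D against Ctrl in a test of the difference itself. IH28D against Ctrl28 was -0.68 and IH5D against Ctrl was 1.40, a difference of -2.07 ± 0.55 (adjusted p 0.0301, limma). Ctrl28 arrays 2 and 3 (76.3 and 70.8) were the highest of the series and Ctrl the lowest, and IH28D (27.3 to 41.5) overlapped with IH5D (18.5 to 41.0). Over single arrays left out the value was between -2.52 and -1.82 with an adjusted p of 0.00142 to 0.0802, and it did not pass without Ctrl array 1 or 3, IH5D array 1 or 3, Ctrl28 array 2 or 3, or IH28D array 1 or 2. Without a minimum signal the adjusted p was 0.0548. The Ctrl signals of 8.03, 16.4 and 10.4 were all below 20, so the size of the difference is uncertain, and with an offset of 16 added before the log it was -1.26 (0.0389).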

How the results depend on the processing

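The counts of called members depended on the processing as follows. Percentages are the shares of all probe sets called under the same setting. In IH5D (5 called, 6.26%) there were 3 without a minimum signal (1.69%), 3 with an offset of 16 (5.13%), 2 with median centring (3.18%), 2 without the variance trend (4.26%), 7 with array weights (26.5%), 7 with the gap in the fit (24.4%), 6 with the compared groups alone (15.6%), and by the methods' t-test 0 adjusted (0%) and 4 unadjusted (21.1%). The replicate block gave 3 (3.38%), and the block over IH5D and Ctrl alone 10 (31.6%); the block changed no other count. In IH5DR2 (4, 4.7%) there were 10 with array weights (26.9%), 8 with the gap (21.9%), 8 with the compared groups alone (16.1%), and by the methods' t-test 0 adjusted (0%) and 9 unadjusted (21.2%). In IH28D against Ctrl28 (0, 7.79%) there were 1 with the offset (8%), 4 with array weights (26.4%), 4 with the gap (14.6%) and 7 against Ctrl (31.5%). The compared groups alone gave 0 there (0.0611%), and the methods' t-test 0 adjusted (0.00436%) and 0 unadjusted (9.66%). In 12 m (13, 50.6%) there were 3 against Ctrl28 (16.8%), and by the methods' t-test 0 adjusted (12.7%) and 6 unadjusted (43.2%). In Ctrl28 (8, 32.9%) there were 13 with array weights (61.4%), 5 with the compared groups alone (9.66%), and by the methods' t-test 0 adjusted (0%) and 3 unadjusted (20.5%). With a single probe set per gene 9 members were tested. Of these 2 were called in IH5D (6.52%), 2 in IH5DR2 (5.61%), 7 in 12 m (53.3%) and 4 in Ctrl28 (37.8%). For the difference between 28 and 5 days (1, 7.12%) there were 10 with array weights (33.2%), 9 with the gap (27.8%) and 0 without a minimum signal (2.46%). A minimum of 50 gave 0 there (11.3%), since it left 12 members and took the 1 called probe set out of the test. The 12 m counts without 12 m array 3 were 1 against Ctrl28 (10.1%) and 1 against IH5D (0.85%). With it they were 3 (16.8%) and 4 (6.9%). Without both arrays that stood apart the counts were 9 in IH5DR2 (24.4%), 4 in IH28D (16%), 13 in Ctrl28 (53.6%) and 10 for the difference (28.2%). Leaving out single arrays gave 0 to 6 in IH5D (0.0436% to 23%) and 0 to 8 in IH5DR2 (0% to 21.4%). It gave 0 to 4 in IH28D (3.77% to 14%) and 11 to 14 in 12 m (37.1% to 58.8%). In Ctrl28 the count was 5 to 12 (19.6% to 51.2%), and in IH5DR2 against IH5D 0 (0% to 0.0262%). For the difference it was 0 to 7 (3.08% to 25.5%).

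Called values changed sign only with the other control group. Against Ctrl, IH28D was 1.60 for Homer1 1425710_a_at and 0.78 for Homer2 1457671_at. Against Ctrl28, 12 m was 0.012 for Grm2, -0.092 for Grm7 1443119_at, -0.20 for Homer1 1425710_a_at and -0.23 for Homer2 1457671_at. The cause was not tested. Signals near or below 20 limit what the dim Homer1, Grm7 and Grm8 probe sets can show.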

Other observations

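Some probe sets lay outside the comparisons. Grm7 1459532_at ranged from 0.373 to 12.1 and had a mean of 4.3, and Homer1 1425671_at had a mean of 4.73, so neither reached the mean of 20 set for testing. The probe set 1431344_at, annotated to Grm2 together with Gm28111, ranged from 4.91 to 27 and was not assigned to Grm2. Of the other member values, Homer3 had the lowest Pearson r with the mean of the immediate early genes over the 18 arrays, at -0.71, and Grm7 1443119_at the highest r with the 3′ to 5′ gap, at 0.63, which describe arrays that share groups.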
